A study of Mus musculus with 12 samples.

Results

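The G2 and mitosis genes described here are 52 genes whose products act between the end of DNA replication and the separation of the daughter cells. They were chosen by gene symbol, and all 52 were found among the 34102 genes of the count table. RNA was sequenced from mouse cortex and from primary cultures of mouse neural progenitor cells (NPC), in a study of Srsf10, which encodes an SR protein that takes part in splicing. The 12 libraries form 4 groups of 3, all on the C57BL/6 background. The cortex group labelled cKO is Srsf10 flox/flox with the Nestin-Cre transgene, and its controls are Srsf10 flox/flox without it. Nestin-Cre makes Cre recombinase in neural progenitors and in the cells they give rise to. No group had Nestin-Cre without the floxed allele, so loss of Srsf10 and an effect of the transgene cannot be told apart in cortex. The NPC groups are labelled SRSF10 knockdown and WT. By the labels, the cells grew in suspension with bFGF, EGF, heparin and B27, were infected with lentivirus at a multiplicity of infection of 30, and gave RNA 72 h after infection. Which virus the control cells received, the age of the mice, and whether libraries came from separate animals or cultures are not stated in the sources used here. The p-values therefore measure only the spread between these libraries, which may be technical.

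A dividing cell enters mitosis when a cyclin-dependent kinase bound to cyclin B is switched on, condenses its chromosomes, attaches them to the spindle, and waits at the spindle checkpoint until every chromosome is attached. The anaphase-promoting complex then marks cyclin B and securin for destruction, the sister chromatids part, and cytokinesis splits the cell. Most of these genes are transcribed in waves late in the cycle, through promoters bound by the MuvB complex together with B-Myb and FoxM1, so their summed RNA in a tissue or culture is widely used as a measure of proliferation. In developing cortex the dividing cells are mainly the radial glia and the intermediate progenitors, while neurons have left the cycle. In bulk RNA, fewer cells of a type and less RNA per cell cannot be told apart.

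The cell-cycle genes homology region (CHR), searched as TTTGAA and TTCGAA, and the CCAAT box are the sequence elements best known from promoters of this class, so both were searched on both strands of the promoters of the members. RefSeq promoter sequences on GRCm38.p6, running from 250 bases before to 50 bases after the RefSeq start of each gene, matched 43 of the 52 members. A CHR was found in 33 of these 43 (76.7%), against 5254 of all 27025 promoters in the table (19.4%) and 1418 of the 10729 promoters of genes tested in NPC (13.2%). A CCAAT box was found in 31 (72.1%), against 10248 of all promoters (37.9%) and 4184 of those of tested genes (39.0%). Both were found in 29 (67.4%), against 2082 of all promoters (7.70%) and 624 of those of tested genes (5.82%). The E2F site of S phase promoters, searched as TTCCCGC and TTGGCGC, was found in 6 (14.0%), against 1874 of all promoters (6.93%) and 1351 of those of tested genes (12.6%), close to the share among members. A match of letters does not show that a factor binds, and the E2F letters TTGGCGC on the opposite strand can share bases with a CCAAT box. The 4 members with both elements and the largest fold changes in NPC are printed on the strand of the gene, 5′ to 3′, with each CHR and each CCAAT box in capitals (ATTGG is a CCAAT box on the opposite strand). They are Hmmr (chr11:40733388-40733687, minus strand), Cenpa (chr5:30666636-30666935, plus strand), Cenpf (chr1:189688037-189688336, minus strand) and Ccnb2 (chr9:70421505-70421804, minus strand). Pttg1 (chr11:43425932-43426231, minus strand), the only member without a called difference in the paired NPC fit described below, follows. Its window held none of the motifs. By the mouse GENCODE annotation the gene starts at 43426251, so this window lies inside the gene. It does not show whether the promoter at that start holds the motifs. The windows of Nuf2, Nusap1, Birc5, Mybl2, Cit and Mad2l1 held none of them either, and all 6 of these genes were called higher in that fit. By GENCODE the window of Cit also lies inside the gene, and that of Mad2l1 ends before the gene starts. The same holds on the other side: the windows of Kif2c, Cdca8, Kif14 and Kif4, counted above as holding a CHR, lie inside the gene by GENCODE.
Hmmr: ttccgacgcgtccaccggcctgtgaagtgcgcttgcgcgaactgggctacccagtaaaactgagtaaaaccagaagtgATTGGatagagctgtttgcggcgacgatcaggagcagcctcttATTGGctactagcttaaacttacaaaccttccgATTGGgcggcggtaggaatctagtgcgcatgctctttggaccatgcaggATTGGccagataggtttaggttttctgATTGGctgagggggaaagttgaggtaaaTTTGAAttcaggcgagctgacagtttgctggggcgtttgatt
Cenpa: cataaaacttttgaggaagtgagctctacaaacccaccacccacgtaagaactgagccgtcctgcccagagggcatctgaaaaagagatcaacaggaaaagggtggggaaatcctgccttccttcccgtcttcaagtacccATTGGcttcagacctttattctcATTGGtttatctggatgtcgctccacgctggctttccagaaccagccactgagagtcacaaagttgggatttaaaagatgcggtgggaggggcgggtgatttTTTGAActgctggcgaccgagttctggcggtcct
Cenpf: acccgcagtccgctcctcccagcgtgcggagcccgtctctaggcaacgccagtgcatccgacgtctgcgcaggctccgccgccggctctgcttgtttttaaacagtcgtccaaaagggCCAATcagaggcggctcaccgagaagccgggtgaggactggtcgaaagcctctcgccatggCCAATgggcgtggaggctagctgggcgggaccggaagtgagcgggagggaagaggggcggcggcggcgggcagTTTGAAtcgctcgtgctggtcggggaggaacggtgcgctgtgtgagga
Ccnb2: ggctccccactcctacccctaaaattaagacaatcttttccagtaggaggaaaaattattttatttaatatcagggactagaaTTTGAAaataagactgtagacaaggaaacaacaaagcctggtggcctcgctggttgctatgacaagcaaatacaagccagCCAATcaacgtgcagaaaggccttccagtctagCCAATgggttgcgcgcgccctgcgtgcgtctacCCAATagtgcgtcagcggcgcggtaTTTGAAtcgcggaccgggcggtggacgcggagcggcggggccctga
Pttg1: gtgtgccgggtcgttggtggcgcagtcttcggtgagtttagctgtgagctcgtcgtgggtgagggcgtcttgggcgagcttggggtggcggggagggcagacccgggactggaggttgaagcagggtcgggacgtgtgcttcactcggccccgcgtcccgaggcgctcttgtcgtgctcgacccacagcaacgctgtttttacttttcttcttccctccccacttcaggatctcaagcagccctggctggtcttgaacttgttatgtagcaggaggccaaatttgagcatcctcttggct
In Hmmr and Cenpa the CHR lies just after the RefSeq start that set the window, with CCAAT boxes upstream of that start. The GENCODE starts of both genes differ from these, so the position relative to the start depends on the annotation. Ccnb2 carries a CHR on either side of 3 CCAAT boxes.

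The libraries held 26074094 to 36713205 counts, with all cortex libraries at 32560159 or above and all NPC libraries at 30608918 or below. Srsf10 (ENSMUSG00000028676) had 223, 187 and 224 counts-per-million (CPM) in the cortex libraries labelled cKO, against 198, 220 and 202 CPM in their controls. It had 239, 220 and 217 CPM in the NPC libraries labelled knockdown, against 249, 227 and 223 CPM in their controls. Neither difference passed the test (edgeR quasi-likelihood test with Benjamini-Hochberg adjustment over all genes: log2 fold change 0.03, adjusted p = 0.917 in cortex; -0.05, adjusted p = 0.774 in NPC). Srsf10 was slightly lower in the library labelled knockdown in each of the 3 same-numbered NPC pairs, and the fit with these pairs gave -0.05 as well (adjusted p = 0.530). No test called the targeted gene lower in either system. In cortex, deletion of a floxed exon need not lower a whole-gene count, but this point does not cover the NPC libraries. In NPC the 95% interval of the paired fit ran from -0.15 to 0.06 on the log2 scale, so a larger fall lay outside it. Groups are therefore named by their labels throughout. The 7 markers of radial glia and neural progenitors summed to 9016 to 10833 CPM in the libraries labelled knockdown and 9265 to 9591 CPM in control NPC, against 1069 to 1149 CPM in cortex labelled cKO and 1123 to 1304 CPM in control cortex. The 6 neuronal markers summed to 7573 to 7954 CPM in cortex labelled cKO and 7689 to 8082 CPM in control cortex. Cortex labelled cKO 3 and control 2 each held over 1000 CPM of Ttr, a gene of the choroid plexus.

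All 52 members were higher in the NPC libraries labelled knockdown than in the same-numbered control libraries, in each of the 3 pairs. Over all genes tested, 27.2% were higher in all 3 pairs. The median log2 ratio over members was 0.39 in pair 1, 0.47 in pair 2 and 0.61 in pair 3. Replicate numbers were treated as pairs because same-numbered NPC libraries deviated together from their group means over all genes (correlations 0.60, 0.59 and 0.56). With the pairs in the fit, 51 of 52 members rose (edgeR, adjusted p under 0.05), where 11.9% of all 14258 genes tested rose. The median log2 fold change over members was 0.50 (1.41-fold), against 0.00 over all genes tested, and 48 of the 51 had an adjusted p below 0.001. The rises were modest, and 8 members passed 1.5-fold.

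Without the pairs, 0 of 52 members passed the same test, with 25 at an unadjusted p under 0.05 and a median log2 fold change of 0.48. In that fit 0.351% of all genes were called higher. The members' median standard error was 0.213 without the pairs and 0.0582 with them. DESeq2 called 6 members higher without the pairs (Ccnf, Cdc25c, Hmmr, Kif20a, Kif20b and Anln), against 2.72% of all genes, and 51 with the pairs, against 8.18% of all genes. The call of a rise thus rests on comparing same-numbered libraries. The unpaired median moved to 0.30 without knockdown 1, to 0.32 without control 3 and to 0.73 without control 1.

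The members moved together from library to library. Their summed level was 8299, 6429 and 5556 CPM in the libraries labelled knockdown 1, 2 and 3, against 6194, 4632 and 3680 CPM in NPC control 1, 2 and 3. Replicate 1 was the highest and replicate 3 the lowest in both groups, so that knockdown 3 lay below control 1 and the groups overlapped. This order held for 51 of 52 members in each group, all except Pttg1. The median ratio of replicate 1 to replicate 3 was 1.48 in the libraries labelled knockdown and 1.71 in the controls, both above the median fold of 1.41 between the groups. Control 1 exceeded knockdown 3 for 46 members. The groups did not overlap for 5 members (Ccnf, Cdc25c, Bub3, Cdc20 and Kif20a), all higher in the libraries labelled knockdown, where 10.6% of all genes did not overlap in this direction. What set replicate 1 apart is not stated in the labels.

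**Figure D1:**
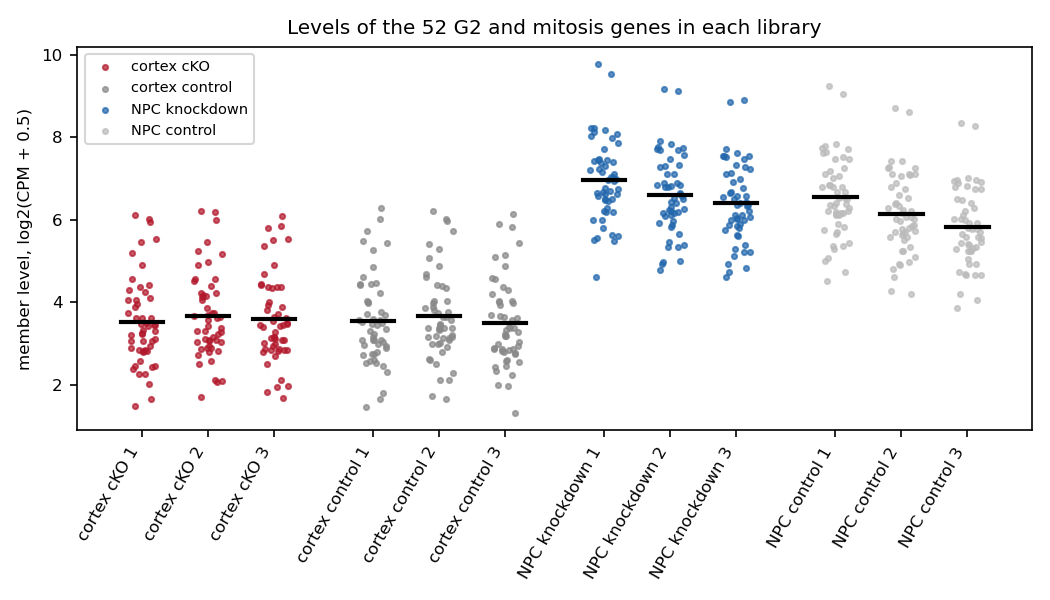
Level of each of the 52 members as log2(CPM + 0.5) in each of the 12 libraries, 1 point per gene, with the mean over members as a black bar. Members are higher in all NPC libraries than in cortex, and within both NPC groups replicate 1 is highest and replicate 3 lowest.

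Regulators of mitotic entry rose in 9 of 9 cases in the paired fit, with a median log2 fold change of 0.50. Cdc25c, the phosphatase that activates the mitotic kinase, had 44.3, 31.8 and 27.9 CPM in the libraries labelled knockdown 1, 2 and 3, against 26.0, 18.0 and 16.3 CPM in the controls. Every library labelled knockdown was above every control, and Cdc25c had the largest fold change of all 52 members (0.79 ± 0.068 (SE), 1.73-fold, edgeR adjusted p = 4.36e-06). Cdk1, the mitotic kinase itself, had 179, 156 and 139 CPM in the libraries labelled knockdown, against 146, 118 and 88.8 CPM in the controls. It had the smallest change of the group (0.44 ± 0.064, adjusted p = 2.47e-04), and control 1 was above knockdown 3. Ccnb1, cyclin B1, had 271, 213 and 185 CPM in the libraries labelled knockdown, against 208, 152 and 119 CPM in the controls, a 1.41-fold rise. The other members of the group lay between these values. Ccnb2 (cyclin B2) rose by 0.59, Aurka (Aurora A, a kinase of the spindle poles) by 0.59, Ccnf (cyclin F) by 0.58, Cdc25b (a related phosphatase) by 0.50, Ccna2 (cyclin A2) by 0.45 and Plk1 (Polo-like kinase 1) by 0.45 on the log2 scale.

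Both transcription factors of the class rose. Foxm1, which drives late cell-cycle promoters, had 148, 114 and 93.1 CPM in the libraries labelled knockdown, against 111, 77.7 and 64.5 CPM in the controls (log2 fold change 0.50 ± 0.053, adjusted p = 2.26e-05). Mybl2, which encodes B-Myb, had 49.2, 40.0 and 37.1 CPM in the libraries labelled knockdown, against 40.5, 30.9 and 24.8 CPM in the controls (0.41 ± 0.070, adjusted p = 8.73e-04). For both genes control 1 lay above knockdown 3, while each pair differed in the same direction.

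Genes of the spindle checkpoint and of anaphase rose in 8 of 9 cases, with a median of 0.45, and held the 3 smallest changes of the whole class. Ttk, the kinase that starts checkpoint signalling at kinetochores, had 55.6, 43.6 and 38.6 CPM in the libraries labelled knockdown, against 38.9, 29.7 and 24.9 CPM in the controls (0.57 ± 0.061, adjusted p = 2.60e-05). Pttg1, which encodes securin, the inhibitor of separase, had 23.9, 29.8 and 29.8 CPM in the libraries labelled knockdown, against 22.5, 27.7 and 26.1 CPM in the controls. Its difference of 0.13 did not pass the test (adjusted p = 0.207, 95% interval -0.02 to 0.28), and it was lowest, not highest, in replicate 1 of both groups. Bub3, a checkpoint protein that docks on kinetochores, rose by 0.25, at 170, 161 and 156 CPM in the libraries labelled knockdown against 152, 135 and 124 CPM in the controls. Mad2l1, the checkpoint protein that inhibits Cdc20, rose by 0.22 (adjusted p = 0.0169). Bub3 and Mad2l1, with the kinetochore gene Ndc80, were the only called members that lost the call without pair 3 (adjusted p = 0.0705, 0.174 and 0.0982). Ube2c, the ubiquitin-conjugating enzyme of the anaphase-promoting complex, rose by 0.53, the checkpoint kinase Bub1 by 0.51 and Cdc20, the activator of that complex, by 0.47. Bub1b, which encodes BubR1, rose by 0.44 and Espl1, which encodes separase, by 0.45.

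**Figure D2:**
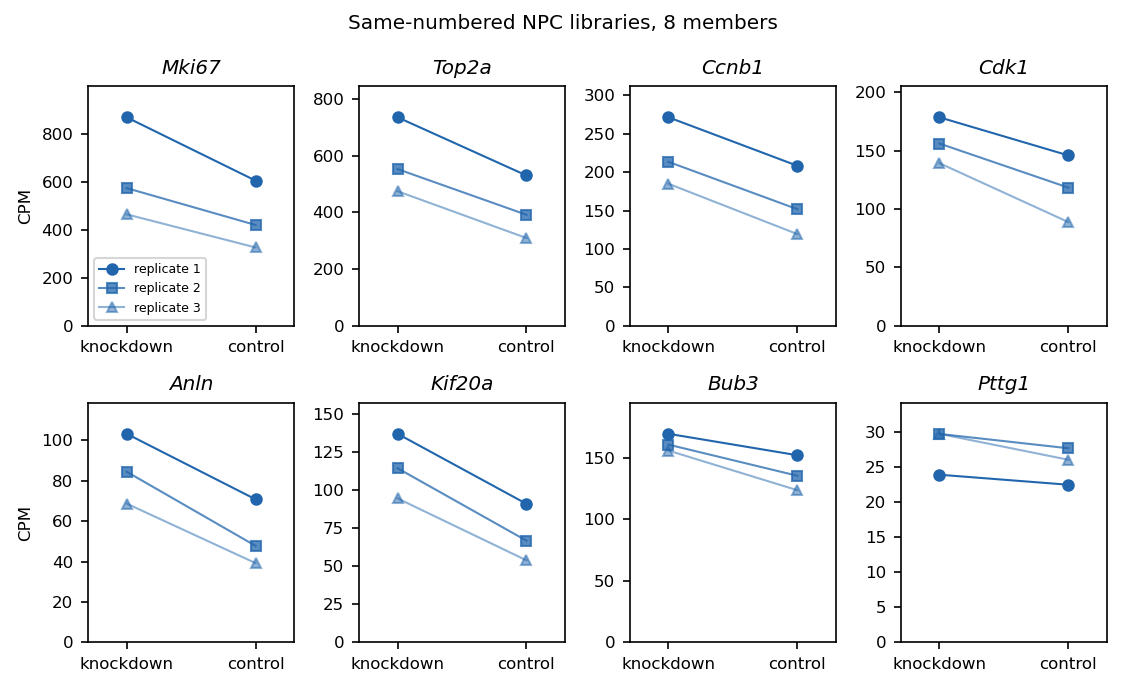
CPM of 8 members in the 3 libraries labelled knockdown (left in each panel) and in the same-numbered NPC controls (right), 1 line per replicate number. Each line is higher at knockdown, and replicate 1 is the highest of the 3 in all panels except Pttg1, where it is the lowest.

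Genes of chromosome structure rose in 6 of 6 cases, with a median of 0.47. Mki67, which encodes Ki-67, the protein of the mitotic chromosome surface used as a proliferation marker, had 868, 573 and 464 CPM in the libraries labelled knockdown, against 604, 420 and 326 CPM in the controls (0.49 ± 0.048, adjusted p = 1.12e-05). Top2a, the topoisomerase that untangles sister chromatids, had 735, 552 and 474 CPM in the libraries labelled knockdown, against 530, 391 and 309 CPM in the controls (0.53 ± 0.050, adjusted p = 9.30e-06). The groups overlapped for both genes, because control 1 was above knockdown 3. The condensin subunits, which fold mitotic chromosomes, marked the ends of the group. Ncapg had 107, 76.0 and 66.4 CPM in the libraries labelled knockdown, against 77.4, 52.3 and 43.3 CPM in the controls, a rise of 0.54. Ncaph had 130, 119 and 109 CPM in the libraries labelled knockdown, against 110, 91.4 and 77.6 CPM in the controls, a rise of 0.37. Smc4 rose by 0.44 and Smc2 by 0.38.

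Genes of the centromere and kinetochore rose in 6 of 6 cases, with the highest median of the 8 roles (0.56). Cenpa, the histone H3 variant of centromeres, had 158, 112 and 94.7 CPM in the libraries labelled knockdown, against 101, 74.7 and 60.1 CPM in the controls (0.63 ± 0.051, 1.55-fold, adjusted p = 2.70e-06). Ndc80, the subunit that grips spindle microtubules, had 48.3, 41.3 and 36.7 CPM in the libraries labelled knockdown, against 42.8, 34.0 and 24.9 CPM in the controls (0.33 ± 0.075, adjusted p = 5.76e-03). Its control 1 lay above both knockdown 2 and knockdown 3. The large proteins of the outer kinetochore, Cenpf and the motor Cenpe, rose by 0.60 and 0.58. Nuf2 and Spc25, partners of Ndc80 in one complex, rose by 0.53 and 0.35.

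The chromosomal passenger complex, which corrects faulty attachments and later helps cytokinesis, rose in 4 of 4 subunits within a narrow range. Cdca8, which encodes borealin, had 127, 94.5 and 81.5 CPM in the libraries labelled knockdown, against 91.0, 64.2 and 51.5 CPM in the controls (0.57 ± 0.055, adjusted p = 1.15e-05). Incenp, the scaffold, had 173, 138 and 126 CPM in the libraries labelled knockdown, against 133, 107 and 84.4 CPM in the controls (0.44 ± 0.056, adjusted p = 9.21e-05). For both subunits control 1 was above knockdown 3. Aurkb, the kinase of the complex, rose by 0.48 and Birc5, which encodes survivin, by 0.46.

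Spindle motors and microtubule proteins rose in 7 of 7 cases, with a median of 0.51. Hmmr, a microtubule-associated protein of the spindle, had 123, 100 and 79.9 CPM in the libraries labelled knockdown, against 83.0, 57.0 and 47.8 CPM in the controls (0.71 ± 0.060, 1.63-fold, adjusted p = 3.76e-06). Kif4, a chromosome-bound kinesin, had 101, 74.8 and 68.8 CPM in the libraries labelled knockdown, against 79.8, 62.0 and 47.5 CPM in the controls (0.38 ± 0.061, adjusted p = 5.53e-04). Both were highest in replicate 1 of each group, and control 1 was above knockdown 3 for both. Tpx2, the activator of Aurora A, rose by 0.56, Kif11, the motor that pushes spindle poles apart, by 0.51, Nusap1 by 0.51, Kif2c, a microtubule-depolymerising kinesin, by 0.49 and Dlgap5, a spindle protein, by 0.47.

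Cytokinesis genes rose in 9 of 9 cases, with a median of 0.52. Kif20a, a kinesin of the central spindle, had 137, 115 and 94.7 CPM in the libraries labelled knockdown, against 91.1, 66.9 and 54.0 CPM in the controls. The groups did not overlap, and its adjusted p was the smallest of the 52 (0.72 ± 0.058, 1.65-fold, adjusted p = 2.39e-06). Anln, which encodes anillin, the scaffold of the contractile ring, had 103, 84.5 and 68.7 CPM in the libraries labelled knockdown, against 70.8, 47.8 and 39.2 CPM in the controls, also 1.65-fold higher. Cit, citron kinase of the midbody, had 72.4, 49.96 and 41.3 CPM in the libraries labelled knockdown, against 56.0, 39.7 and 29.8 CPM in the controls (0.39 ± 0.059, adjusted p = 3.76e-04). Prc1, which bundles the microtubules of the central spindle, rose by 0.58, as did the kinesin Kif20b. Racgap1, Ect2 and Kif23, which place and switch on the contractile ring, rose by 0.52, 0.44 and 0.40, and the kinesin Kif14 by 0.48. The exons of 15 members overlap exons of another gene in mouse GENCODE release M21, for 12 of them a protein-coding one, such as Kif20a with Cdc23, Cdc25c with Gm3550 and Prc1 with Rccd1. For Foxm1, Ccnf and Top2a the overlapping genes lie on the same strand, so counting by strand would not separate them. For the rest they lie on the opposite strand, and whether reads were counted by strand is not stated. The values of all these members are therefore less certain.

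**Figure D3:**
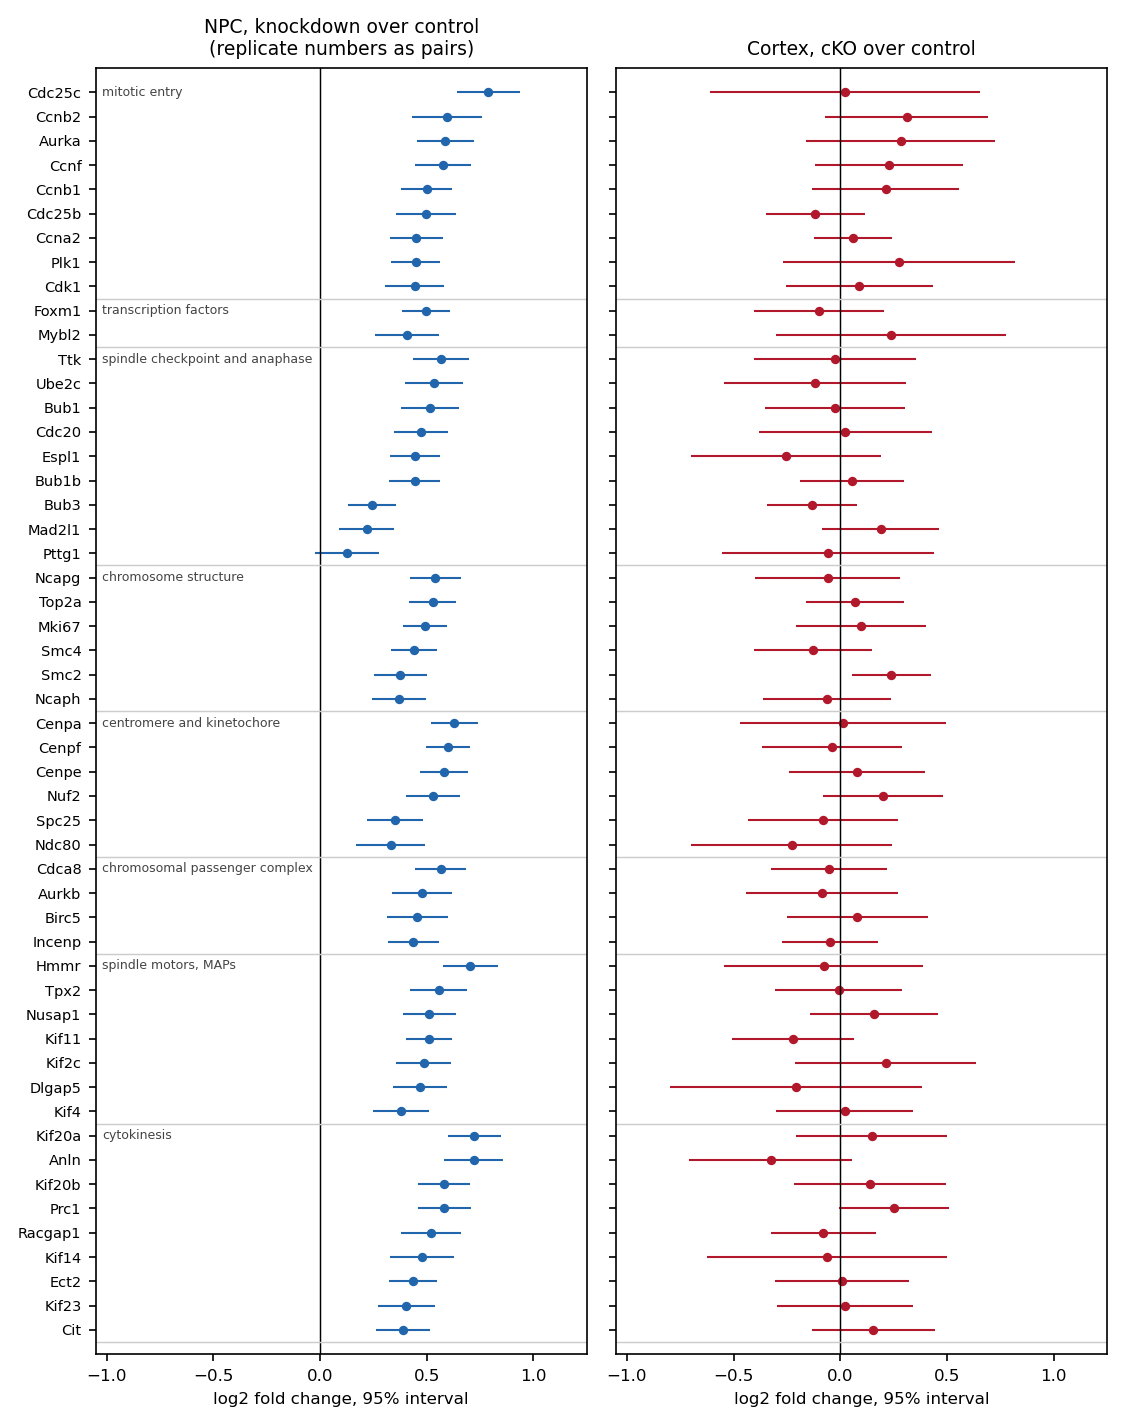
Log2 fold change of each member with its 95% interval, in NPC labelled knockdown over control with replicate numbers as pairs (left) and in cortex labelled cKO over control (right), grouped by role (MAPs, microtubule-associated proteins). In NPC all intervals except that of Pttg1 lie above 0; in cortex all intervals except that of Smc2 include 0.

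Genes of the same process outside the 52 were read from 6 further lists. In NPC without the pairs, and in cortex, 0 genes of these lists passed the test, so the counts that follow are those of the paired NPC fit. In that fit 11.9% of all 14258 genes tested rose. All 25 genes of DNA replication and S phase rose, with a median log2 fold change of 0.45. Rrm2, a subunit of ribonucleotide reductase, had 392, 367 and 319 CPM in the libraries labelled knockdown, against 286, 225 and 171 CPM in the controls, a rise of 0.69. Ccne2 (cyclin E2) rose by 0.64, Uhrf1 by 0.53 and Rrm1 by 0.48. Of the list of other spindle, centrosome and mitotic kinase genes 28 of 30 rose (median 0.48), among them Aspm by 0.62, Ckap2l by 0.69 and Kif15 by 0.60. Ncapd2, a condensin subunit that was also on this list, rose by 0.61. Psrc1 and Fam83d did not pass. Of other kinetochore and centromere genes 21 of 29 tested rose (median 0.44), among them Zwilch by 0.58, Hjurp by 0.44 and Kntc1 by 0.54.

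The other 3 lists hold complexes that also work outside mitosis. Of the subunits, activator and inhibitor of the anaphase-promoting complex 5 of 16 rose (median 0.07), among them Fzr1 by 0.27, its inhibitor gene Fbxo5 by 0.33, Cdc27 by 0.18 and Anapc15 by 0.20. Of cohesin and its regulators 5 of 13 tested rose (median 0.10), among them Esco2, an acetyltransferase that acts in S phase, by 0.47, Cdca5, which encodes sororin, by 0.38, Rad21 by 0.25 and Smc3 by 0.23. Of the DREAM and MuvB complexes, which repress or activate late cell-cycle promoters, 4 of 11 rose (median 0.11) and 1 fell. Over all 14258 genes tested 1696 rose and 1826 fell, so 1 fall in this list does not set it apart. Rbl1, which encodes the repressor p107, rose by 0.44, Tfdp1 by 0.34 and Lin54 by 0.29. E2f4 had 34.1, 32.9 and 30.4 CPM in the libraries labelled knockdown, against 38.8, 38.7 and 36.6 CPM in the controls, and fell by 0.23 (adjusted p = 0.0154).

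**Figure D4:**
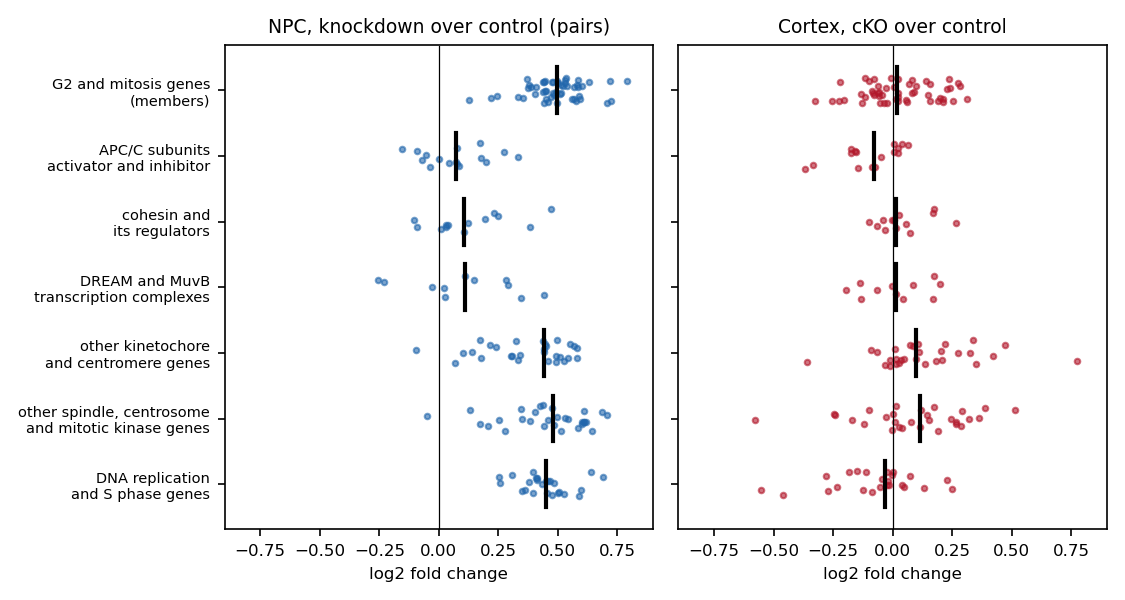
Log2 fold change of each tested gene of the 52 members and of 6 related lists, in NPC labelled knockdown over control with pairs (left) and cortex labelled cKO over control (right), with the list median as a black bar. In NPC the bars of the members, the other kinetochore, other spindle and S phase lists lie between 0.44 and 0.50 and those of the other 3 lists between 0.07 and 0.11; in cortex the 7 bars lie between -0.08 and 0.12.

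Markers of progenitors and other cells were read in the same paired NPC fit. Sox2, the transcription factor of neural progenitors, had 245, 196 and 186 CPM in the libraries labelled knockdown, against 302, 288 and 294 CPM in the controls, and fell by 0.50 (adjusted p = 8.49e-05). Nes, which encodes the progenitor filament nestin, rose by 0.21, and the other 5 of the 7 progenitor markers did not pass. Pdgfra, of the oligodendrocyte lineage, had 50.6, 12.0 and 7.73 CPM in the libraries labelled knockdown, against 62.2, 21.99 and 12.5 CPM in the controls, and fell by 0.58. Like the members, it was highest in replicate 1 of both groups. The 5 markers of the oligodendrocyte lineage summed to 2925 to 3002 CPM in the libraries labelled knockdown and 2807 to 2871 CPM in the controls. The 4 astrocyte markers summed to 1987 to 2163 CPM in the libraries labelled knockdown and 1798 to 1872 CPM in the controls; Aldh1l1 and Aqp4 rose by 0.41 and 0.63, and Gfap fell by 0.73. The neuronal markers summed to 1082 to 1335 CPM in the libraries labelled knockdown and 1023 to 1132 CPM in the controls, while of the 5 tested singly 0 were called higher, 1 was called lower and the median log2 fold change was -0.17. Of the 2 intermediate progenitor markers tested, both were above 0 and 1 was called, Btg2, which rose by 0.48. The 5 interneuron markers summed to 10.1 to 15.0 CPM in the libraries labelled knockdown and 12.6 to 13.6 CPM in the controls. Of the 4 tested, 2 were above 0, with a median of -0.01, and only Gad2, near 1 CPM, was called, with a fall of 1.38. Markers of endothelial cells, pericytes and fibroblasts, microglia, erythroid cells and choroid plexus each summed to 9.04 CPM or less in every NPC library, and Aif1, Cx3cr1, Hbb-bt and Lhx6 were at 0 in all 6. The part of these differences in the members' rise was not tested.

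In cortex, none of the 52 members was called different between the libraries labelled cKO and their controls (0 called by edgeR and 0 by DESeq2, 1 at an unadjusted p under 0.05), where 0.171% of all genes were called. The summed level of the members was 797, 865 and 814 CPM in the libraries labelled cKO, against 809, 867 and 768 CPM in the controls, so the groups overlapped. Of the 52 log2 fold changes 28 were above 0 and 24 below, with a median of 0.02, against 0.00 over all genes tested. They ran from -0.33 (Anln) to 0.31 (Ccnb2). For 40 members the 95% interval of the cortex difference ended below the value the same gene had in the paired NPC fit, so a change of that size lay outside the interval. For the other 12 members, among them Ccnb1, Plk1, Aurka, Mybl2 and Smc2, the interval included it.

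The members nearest to a difference in cortex were spread over the roles. Smc2 had 43.4, 43.3 and 45.2 CPM in the libraries labelled cKO, against 38.2, 38.8 and 34.8 CPM in the controls (0.24 ± 0.08, 95% interval 0.05 to 0.43, adjusted p = 0.324). The groups did not overlap, as for Ccna2, Mad2l1, Nuf2 and Prc1, all higher in the libraries labelled cKO; 17.3% of all genes did not overlap in either direction. Ccnb2 had 6.96, 6.11 and 7.66 CPM in the libraries labelled cKO, against 6.16, 5.65 and 4.91 CPM in the controls (adjusted p = 0.549). Control 1 was just above cKO 2. Anln had 6.56, 8.41 and 6.84 CPM in the libraries labelled cKO, against 7.47, 9.97 and 9.93 CPM in the controls (adjusted p = 0.532), again with overlap. Mki67 had 68.7, 73.1 and 55.2 CPM in the libraries labelled cKO, against 52.1, 73.2 and 58.9 CPM in the controls, and Cdk1 had 11.8, 17.1 and 14.9 CPM in the libraries labelled cKO, against 15.4, 13.7 and 12.2 CPM in the controls. By role, the median ran from -0.05 for the chromosomal passenger complex to 0.21 for regulators of mitotic entry, where Cdc25b alone was below 0. The members' counts were lower in cortex, down to 74 counts for Cdc25c in 1 library, and their median standard error there was 0.149. The 5 interneuron markers summed to 299 to 336 CPM in the libraries labelled cKO, against 378 to 431 CPM in the controls, with 0 of the 5 called; the part of this difference in the members' values was not tested.

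Whether the members' difference was unlike in NPC and cortex was tested as an interaction, NPC log2 fold change minus cortex log2 fold change, over 16569 genes. The term was above 0 for all 52 members, with a median of 0.45. Without the NPC pairs 0 members passed (14 at an unadjusted p under 0.05, 1 called by DESeq2), where 1.46% of all genes passed in either direction. With the pairs as terms, an alternative chosen after seeing the data, 13 members had a higher difference in NPC, where 2.41% of all genes did. The largest term was that of Anln (1.06 ± 0.18, adjusted p = 5.97e-03), followed by Kif11 (0.74), Cdca8 (0.63) and Cdc25b (0.62). The count was 7 without cKO 1, 22 without cortex control 3, and 5, 2 and 1 without NPC pair 1, 2 and 3. Anln kept the call in each of these fits. For the other 39 members a difference between the systems was not shown.

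The members were far higher in cultured progenitors than in tissue. All 52 were called higher in control NPC than in control cortex, where 38.4% of all 15676 genes were, and the median fold was 6.98. Ccnb1 had the largest fold, 18.2, with 208, 152 and 119 CPM in control NPC against 9.78, 9.90 and 7.23 CPM in control cortex. Plk1 followed at 15.0-fold, Cdc20 at 12.4-fold and Ube2c at 12.2-fold. Cdc25b had the smallest, 1.58, with 41.1, 30.1 and 25.4 CPM in control NPC against 21.3, 21.01 and 20.1 CPM in control cortex (adjusted p = 4.39e-03). Cit was 2.89-fold higher and Smc4 3.10-fold. The libraries of the 2 systems did not overlap for any of these. Culture, cell makeup, infection and preparation all differ between NPC and cortex and cannot be told apart in this contrast.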

How the data were processed

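Total RNA of 12 mouse libraries was sequenced, 3 in each of 4 groups taken from the sample labels. The deposited values are raw counts, whole numbers per gene and library. The authors used HISAT2 and the build mm10, per the submitters' processing notes; no version is given. The counting step, with its annotation and strand setting, was not given in the sources used here. Members, roles, gene lists, motifs and tests were chosen with earlier results of these data known. All 52 passed the count filter in each comparison.

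Counts were normalised by TMM and tested in edgeR 4.0.16 by its quasi-likelihood test (R 4.3.3) after filterByExpr, with Benjamini-Hochberg adjustment over all genes tested and a threshold of 0.05. CPM use TMM factors computed within cortex and within NPC separately. Log2 fold changes are treated minus control, or NPC minus cortex, with standard errors (SE) and 95% intervals. Same-numbered NPC libraries had residual correlations of 0.60, 0.59 and 0.56, and cortex libraries 0.01, -0.20 and -0.03, so the replicate block is given beside the NPC result. The pairing comes from these correlations and not from a statement in the labels. Replicates differed by more than counting noise. Alternatives were DESeq2 1.42.0, RLE size factors, no filter, the replicate block, a joint fit of the 12 libraries, leaving out each library or pair, and leaving out 2 Ttr-rich cortex libraries. The procedure was run on simulated counts with planted changes, and the outcome is not reported here. In the paired simulation each gene shifted between pairs on its own, whereas the members here moved together. Promoters were searched as letters on both strands, 1 entry per gene. Depth was 26074094 to 36713205 counts a library; spread between libraries limits precision as well. All members were named, and of each list up to 4 called genes with the smallest adjusted p; some genes this rule selects are not reported here. Figures were drawn with matplotlib 3.10.9.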

Additional observations from a re-analysis of the deposited data

Results flagged for a closer look

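The difference in NPC exceeded that in cortex, by the interaction term with NPC pair terms in edgeR, for 13 of the 52 members. Over all 16569 genes tested, 2.41% did. On the log2 scale the terms of these members were 1.06 for Anln, 0.74 for Kif11, 0.63 for Cdca8, 0.62 for Cdc25b, 0.61 for Racgap1, 0.61 for Ncapg, 0.61 for Foxm1, 0.59 for Kif20a, 0.58 for Smc4, 0.58 for Aurkb, 0.50 for Incenp, 0.47 for Top2a and 0.41 for Ccna2. Of these, Kif20a, Top2a and Ccna2 were above 0 in cortex as well, and the other 10 were below 0 there, none with a called difference. Only 5, 2 and 1 of the 13 kept the call without NPC pair 1, 2 and 3. Without the pair terms 0 members passed, 14 had an unadjusted p under 0.05 and DESeq2 called 1. The term compares Nestin-Cre tissue labelled cKO with lentivirus-infected cultures labelled knockdown, and Srsf10 was not called lower in either.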

How the results depend on the processing

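With the replicate block, the NPC comparison called 51 members higher under TMM, RLE size factors, no filter and DESeq2, and 48 to 51 when a pair was left out. Over all genes, 11.9% were called higher with the block in edgeR under TMM and 8.18% in DESeq2. Without the block, edgeR called 0 members, DESeq2 called 6 and 1 fit of all libraries called 1. Leaving out any library left 0, with the median log2 fold change between 0.30 and 0.73. Over all genes, 0.351% were called higher without the block in edgeR and 2.72% in DESeq2. In cortex 0 members were called under every setting run, the replicate block and the fit without Ttr-rich libraries included, and the median lay between -0.05 and 0.08. The interaction called 0 members, 13 with the NPC replicate block and 1 with DESeq2, and 0 to 1 when a library was left out. With the block it called 11 under RLE size factors, 10 without the Ttr-rich libraries and 1 to 22 when a cortex library or an NPC pair was left out. Over all genes, the main interaction fit called 1.46% in either direction, and the fit with the block called 2.41% higher. In control NPC against control cortex 52 members were called under each setting run, where the main fit called 38.4% of all genes higher. The shares of all genes under the other settings are not reported here. No direction of a member's difference turned in the paired NPC fit. A fit that leaves out a library keeps 2 against 3, and the cause of each change was not tested. Gene counts do not show splicing or protein.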
